A study of Mus musculus with 10 samples.

Results

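The 8 genes described here carry out the transport of glucose and fructose and the steps of fructolysis and gluconeogenesis in the intestinal epithelium. They were chosen by name, as the rows for Slc5a1, Slc2a5, Slc2a2, Khk, Pck1, Fbp1, G6pc and Slc2a1 among the 54532 genes of the count table, and all 8 were among the 15703 genes that passed the filter of more than 0.5 cpm (read counts scaled to the library size) in at least 3 libraries. RNA was sequenced from small intestinal epithelial cells of 5 Gucy2c-GFP mice, litter-matched, 10 weeks old and of the outbred CD1/ICR stock. All mice carried the same transgene, in which the promoter of Gucy2c, the gene for the guanylyl cyclase C receptor, drives GFP. From each mouse, 20000 live cells with high GFP fluorescence (GUCY2Chi) and 20000 with medium fluorescence (GUCY2Cmed), the bulk of the epithelium, gave 1 library each, 10 in all. Both groups are defined by fluorescence and not by a cell type, and neither was treated.

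Absorptive enterocytes take up glucose and galactose across the brush border with sodium through SGLT1, and fructose through GLUT5, and both sugars leave across the basolateral membrane through GLUT2. Inside the cell, ketohexokinase starts the breakdown of fructose to trioses, and the gluconeogenic enzymes PEPCK, fructose-1,6-bisphosphatase and glucose-6-phosphatase can turn trioses and oxaloacetate back into glucose. Enteroendocrine cells, scattered among the enterocytes, also use SGLT1 as a sensor of luminal glucose, whereas GLUT1 serves the basal glucose supply of many cell types.

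Libraries held between 10903958 and 15307932 counted reads, and the 8 genes between 56 and 45199 reads per library. Levels are given as cpm normalized by TMM, edgeR's scaling between libraries, with the SD over 5 mice. The numbers 2, 7, 12, 14 and 15 in the labels were taken as those of the mice. All 13 enteroendocrine markers examined were higher in GUCY2Chi cells, with a summed level of 39130 to 156500 cpm against 114.8 to 312.6 cpm. The summed level of 14 enterocyte markers was 2626 to 30530 cpm in GUCY2Chi cells and 54060 to 75090 cpm in GUCY2Cmed cells, and 4 of the 14 passed the test as lower. Over all genes tested, 8.79% passed as lower and 13.9% as higher. Of 9 markers of proliferating crypt cells 7 were lower, with a summed level of 77.3 to 191.0 cpm against 255.6 to 582.6 cpm and no overlap of the groups. They were lower together with 7 of the 8 genes, and their part in those differences was not tested. Of 4 stem cell markers 0 passed. The GUCY2Chi libraries of mice 12 and 15 stood apart. They held 44.3% and 43.1% of the enterocyte marker level of the GUCY2Cmed cells of the same mouse, against 4.75%, 4.86% and 4.80% in mice 2, 7 and 14.

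Of the 250 bases before each gene's RefSeq start (GRCm38.p6; a window was found for all 8), 5 held letters of a motif that is well known for genes of sugar metabolism or general transcription. The motifs were searched on both strands. They were the E-box CACGTG, of a kind found within carbohydrate response elements, and the hypoxia response core ACGTG, which any CACGTG also contains. The others were the cyclic AMP response core TGACG and the TATA box TATAAA. A single E-box is not in itself a carbohydrate response element. The stretches that follow show these letters in capitals, Slc5a1 and Pck1 up to the gene start in the count table and the other genes by 30 bases around the match, because 4 of these genes had lower levels in GUCY2Chi cells and Slc2a1 had higher ones.
Slc5a1, chr5:33103969-33104218, plus strand: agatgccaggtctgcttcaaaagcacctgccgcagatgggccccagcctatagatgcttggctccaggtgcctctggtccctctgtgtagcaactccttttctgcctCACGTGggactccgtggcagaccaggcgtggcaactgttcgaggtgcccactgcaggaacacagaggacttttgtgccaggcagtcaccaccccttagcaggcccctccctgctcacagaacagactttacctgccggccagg
Pck1, chr2:173152823-173153047, plus strand: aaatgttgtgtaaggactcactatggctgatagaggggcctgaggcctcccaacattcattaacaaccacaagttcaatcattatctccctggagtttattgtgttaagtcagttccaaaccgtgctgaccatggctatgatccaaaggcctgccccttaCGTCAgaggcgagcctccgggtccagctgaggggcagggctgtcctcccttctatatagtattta
Khk, chr5:30921473-30921502, plus strand: ggcagcgttcccCGTCACGTGacaccgtta
Slc2a1, chr4:119108697-119108726, plus strand: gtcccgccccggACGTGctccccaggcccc
G6pc, chr11:101367675-101367704, plus strand: gaatccagggcaTATAAAacaggggcaagg
In Slc5a1 the E-box lay from -143 to -138, counted from the RefSeq start. In Khk an E-box from -71 to -66 overlapped the reverse complement of the cyclic AMP core from -74 to -70, and in Pck1 that core lay from -90 to -86. Slc2a1 held the hypoxia core from -36 to -32, and G6pc a TATA box from -29 to -24. By the gene starts in the count table, the stretches of Khk and G6pc lie inside the gene, and that of Slc2a1 crosses its start. The E-box was present in 6.02% of 32851 windows of this length, the hypoxia core in 16.6%, the cyclic AMP core in 17.8% and the TATA box in 12.4%. Among the 8 genes they were present in 2, 3, 2 and 1. Such a match is a description of these letters, not of a bound site.

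Between GUCY2Chi and GUCY2Cmed cells, 7 of the 8 genes had lower levels in the GUCY2Chi cells of 5 of 5 mice, and Slc2a1 had higher levels in 5 of 5. By edgeR's quasi-likelihood test, at a Benjamini-Hochberg adjusted p under 0.01 over all genes tested, Slc2a5 and Fbp1 were lower and Slc2a1 was higher. Thus 2 of 8 genes passed as lower, where 8.79% of all genes tested did, and 1 of 8 as higher, where 13.9% did. The median log2 fold change was -1.73 over the 8 genes and 0.09 over all genes tested. The libraries of the groups did not overlap for Slc5a1, Slc2a5, Khk and Fbp1, all lower, and for Slc2a1. That is 4 of 8 lower and 1 of 8 higher, where 13.2% and 16.7% of all genes tested showed this. In bulk RNA, fewer cells of a type and less RNA per cell cannot be told apart.

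**Figure D1:**
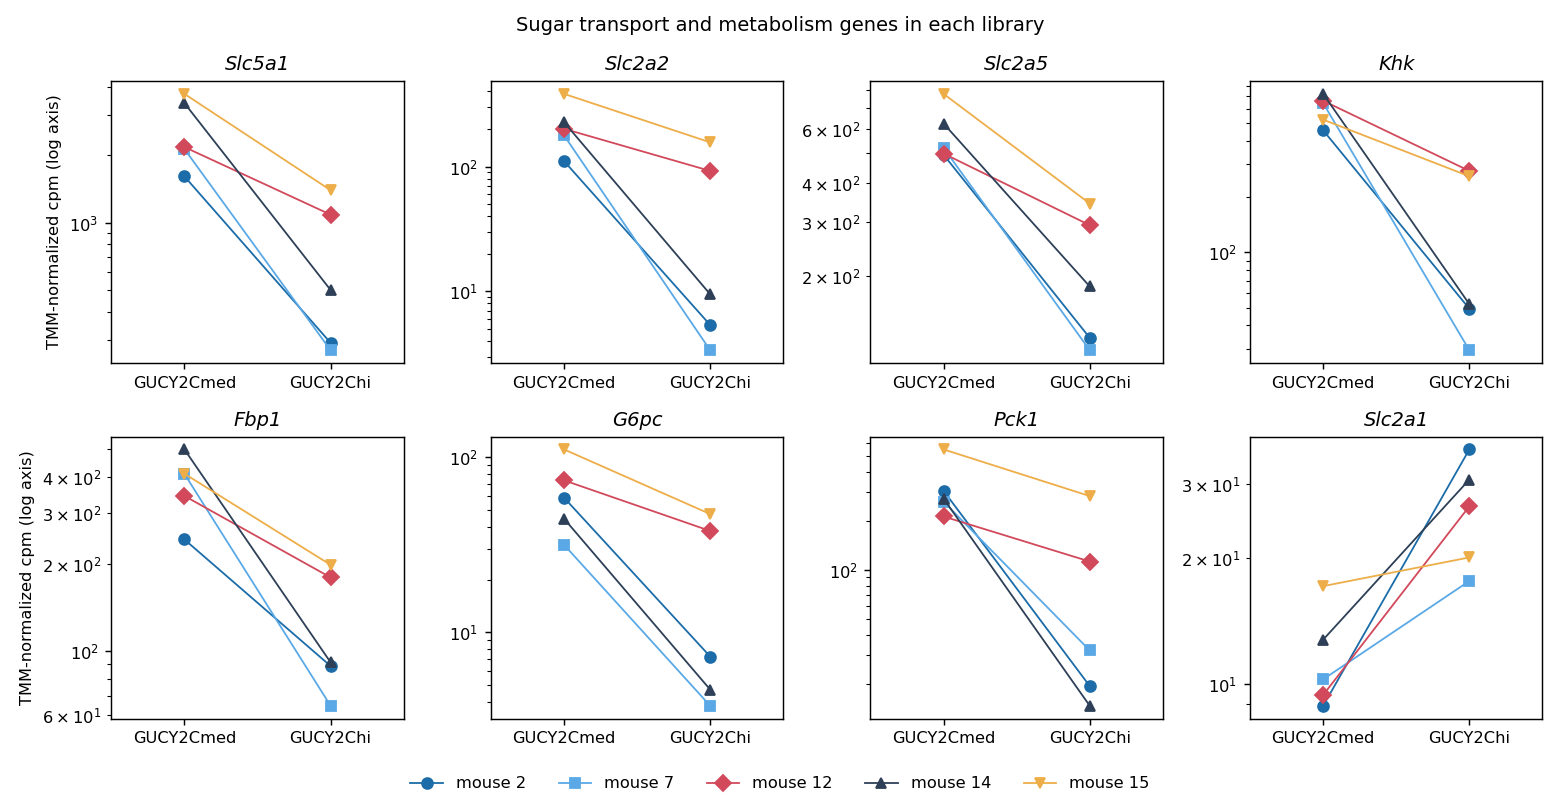
TMM-normalized cpm (log axis, a separate scale per gene) of the 8 genes in GUCY2Cmed and GUCY2Chi cells, with a line for each of the 5 mice. All lines fall except those of Slc2a1, and for the other 7 genes mice 12 and 15 are the highest in GUCY2Chi cells.

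Slc5a1 encodes SGLT1, the sodium-coupled glucose and galactose transporter of the brush border. The gene (ENSMUSG00000011034) lies on chromosome 5 from 33104219 to 33162870 on GRCm38, plus strand. In mice 2, 7, 12, 14 and 15 it had 292.0, 270.8, 1084, 501.5 and 1392 cpm in GUCY2Chi cells and 1604, 2122, 2165, 3394 and 3731 cpm in GUCY2Cmed cells. The highest GUCY2Chi library, of mouse 15, was below the lowest GUCY2Cmed library, of mouse 2. The means were 708 ± 504 and 2603 ± 911 cpm (SD, n = 5), with an exact permutation p of 0.00794, the smallest that 5 against 5 allow (two-sided, on log2 levels). The log2 fold change was -1.88 (standard error 0.49) and missed the threshold in edgeR (adjusted p = 0.0109). With the mouse entered as a block it passed, at -2.13 (adjusted p = 0.00766), and over all alternatives the adjusted p ranged from 0.000167 to 0.0391. It also passed without the GUCY2Chi library of mouse 15, with a log2 fold change of -2.25.

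Slc2a5 encodes GLUT5, the fructose transporter of the brush border. The gene (ENSMUSG00000028976) lies on chromosome 4 from 150119283 to 150144169, plus strand. Its levels in GUCY2Chi cells were 125.7, 114.6, 291.9, 184.6 and 343.2 cpm in mice 2, 7, 12, 14 and 15, and in GUCY2Cmed cells 494.5, 520.3, 498.8, 624.2 and 779.4 cpm. All GUCY2Chi libraries were below all GUCY2Cmed libraries, and the GUCY2Cmed levels differed by no more than 1.58-fold between mice. The means were 212 ± 102 and 583.5 ± 122 cpm (SD, n = 5; exact permutation p = 0.00794). Slc2a5 was called lower, at a log2 fold change of -1.46 ± 0.32 (standard error) and an adjusted p of 0.00473. The call was lost without any 1 of the GUCY2Chi libraries of mice 2, 7 and 14 or the GUCY2Cmed libraries of mice 2, 12, 14 and 15, where the log2 fold change stayed between -1.25 and -1.46.

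Slc2a2 encodes GLUT2, through which glucose and fructose leave the enterocyte, and it spread most of the 8 between GUCY2Chi libraries. The gene (ENSMUSG00000027690) lies on chromosome 3 from 28697903 to 28731359, plus strand. In GUCY2Chi cells it had 5.38, 3.38, 92.3, 9.48 and 156.3 cpm in mice 2, 7, 12, 14 and 15, a 46.3-fold range. In GUCY2Cmed cells it had 110.7, 178.1, 200.7, 227.0 and 382.3 cpm, a 3.45-fold range. The groups overlapped, since the GUCY2Chi library of mouse 15 was above the GUCY2Cmed library of mouse 2. The means were 53.4 ± 68.6 and 219.8 ± 100.6 cpm (SD, n = 5; exact permutation p = 0.0159), and the log2 fold change of -2.04 (standard error 0.93) had an adjusted p of 0.105 in edgeR. With the mouse as block it was -3.43 (adjusted p = 0.0195) in edgeR and -3.26 (adjusted p = 0.00846) in limma-voom, which passed. Without the GUCY2Chi library of mouse 15 it was -2.96, and over all alternatives the adjusted p ranged from 3.34e-05 to 0.237.

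Khk encodes ketohexokinase, which phosphorylates fructose in the first step of fructolysis. The gene (ENSMUSG00000029162) lies on chromosome 5 from 30921431 to 30931248, plus strand. Its levels were 49.3, 29.4, 275.6, 52.2 and 257.8 cpm in the GUCY2Chi cells of mice 2, 7, 12, 14 and 15, and 457.8, 643.0, 662.2, 721.7 and 522.9 cpm in their GUCY2Cmed cells. The groups did not overlap, and the GUCY2Chi libraries fell into a high pair, mice 12 and 15, and 3 low libraries. The means were 132.8 ± 122.6 and 601.5 ± 108 cpm (SD, n = 5; exact permutation p = 0.00794), which is 4.53-fold lower in GUCY2Chi cells. The log2 fold change was -2.18 (standard error 0.59) with an adjusted p of 0.0133, which passed the threshold without the GUCY2Chi library of mouse 12 (-2.63) or of mouse 15 (-2.54).

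Pck1 encodes cytosolic PEPCK, which makes phosphoenolpyruvate from oxaloacetate at the start of gluconeogenesis. The gene (ENSMUSG00000027513) lies on chromosome 2 from 173153048 to 173159273, plus strand. In GUCY2Chi cells the levels were 19.4, 32.1, 112.7, 14.7 and 283.8 cpm in mice 2, 7, 12, 14 and 15, and in GUCY2Cmed cells 305.6, 262.4, 212.8, 273.7 and 548.4 cpm. Mouse 15 was the highest in both groups, and its GUCY2Chi library was above the GUCY2Cmed libraries of mice 7, 12 and 14. The means were 92.6 ± 114 and 320.6 ± 131.6 cpm (SD, n = 5; exact permutation p = 0.0317). The log2 fold change of -1.79 (standard error 0.73) had an adjusted p of 0.0736 and passed without the GUCY2Chi library of mouse 15 (-2.80).

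Fbp1 encodes fructose-1,6-bisphosphatase 1, the enzyme that opposes phosphofructokinase. The gene (ENSMUSG00000069805) lies on chromosome 13 from 62864753 to 62888282, minus strand. It had 88.6, 64.5, 179.4, 91.2 and 198.3 cpm in the GUCY2Chi cells of mice 2, 7, 12, 14 and 15, and 242.8, 409.6, 343.5, 497.6 and 410.1 cpm in their GUCY2Cmed cells. The groups did not overlap, with a gap between 198.3 and 242.8 cpm. The means were 124.4 ± 60.1 and 380.7 ± 94.6 cpm (SD, n = 5; exact permutation p = 0.00794). Fbp1 was called lower, at a log2 fold change of -1.61 ± 0.33 (standard error) and an adjusted p of 0.00335, and the call was lost without the GUCY2Chi library of mouse 2 or 14 or the GUCY2Cmed library of mouse 12 or 15, where the value stayed between -1.58 and -1.44.

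G6pc encodes the catalytic subunit of glucose-6-phosphatase, which releases free glucose in the last step. The gene (ENSMUSG00000078650) lies on chromosome 11 from 101367561 to 101377903, plus strand. Its levels were 7.26, 3.80, 37.9, 4.70 and 47.4 cpm in the GUCY2Chi cells of mice 2, 7, 12, 14 and 15, and 58.8, 31.6, 73.8, 44.6 and 110.9 cpm in their GUCY2Cmed cells. The GUCY2Chi libraries of mice 12 and 15 were above the GUCY2Cmed library of mouse 7, so the groups overlapped, although each mouse's GUCY2Chi library was below its own GUCY2Cmed library. The means were 20.2 ± 20.8 and 64.0 ± 30.6 cpm (SD, n = 5; exact permutation p = 0.0397). The log2 fold change was -1.66 (standard error 0.69) with an adjusted p of 0.0783. With the mouse entered as a block it passed, at -2.29 (adjusted p = 0.00855), and over all alternatives the adjusted p ranged from 0.000154 to 0.21.

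Slc2a1 encodes GLUT1, the transporter of basal glucose supply, and was the 1 gene of the 8 that was higher in GUCY2Chi cells. The gene (ENSMUSG00000028645) lies on chromosome 4 from 119108711 to 119137983, plus strand. Its levels were 36.2, 17.6, 26.5, 30.7 and 20.03 cpm in the GUCY2Chi cells of mice 2, 7, 12, 14 and 15, and 8.89, 10.3, 9.44, 12.8 and 17.1 cpm in their GUCY2Cmed cells. The groups did not overlap, but the lowest GUCY2Chi library, of mouse 7, was close to the highest GUCY2Cmed library, of mouse 15. The means were 26.2 ± 7.61 and 11.7 ± 3.37 cpm (SD, n = 5; exact permutation p = 0.00794), 2.24-fold higher. The log2 fold change reached 1.16 ± 0.26 (standard error), called higher at an adjusted p of 0.00459. With the mouse entered as a block the value was 1.16 and the call was lost (adjusted p = 0.0192). Over all alternatives the adjusted p ranged from 0.000136 to 0.0192, and the call was also lost without the GUCY2Chi library of mouse 14 (1.10) or the GUCY2Cmed library of mouse 7 (1.12) or 14 (1.195).

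GLUT1 is also well known from red blood cells and endothelium. The summed level of 5 erythrocyte markers was 1.68 to 58.8 cpm in GUCY2Chi cells and 1.85 to 22.0 cpm in GUCY2Cmed cells, and the 4 that were tested had adjusted p values from 0.0147 for Alas2 to 0.971. Of 4 endothelial markers only Pecam1 could be tested. It was higher, with 2.40 against 0.12 cpm on average. With at most 3 reads in a GUCY2Cmed library, it passed the filter through GUCY2Chi libraries only, so its test is no independent support for a difference. Kdr and Tek had at most 4 reads each in a GUCY2Chi library, and at most 5 and 3 in a GUCY2Cmed library. Cdh5 had no read in any GUCY2Chi library and at most 1 in a GUCY2Cmed library. The summed level of 8 hepatocyte markers, a cell type with strong gluconeogenesis, was 13.5 to 96.7 cpm in GUCY2Chi cells and 0.749 to 3.08 cpm in GUCY2Cmed cells. Of 5 tested, 4 were higher, where 13.9% of all genes tested were. These 4 passed the filter through the GUCY2Chi libraries, with at most 10 reads in any GUCY2Cmed library. Their tests are thus no independent support for a difference, and their count cannot be read against that share. Alb, at 23.3 against 0.21 cpm on average, was the most abundant of them. Cyp2e1 had 0.70 against 0.69 cpm on average and did not pass in edgeR (adjusted p = 0.998). Fga had at most 7 reads in a GUCY2Chi library, and Ahsg and Fgb had no read in any GUCY2Chi library. The summed level of 4 Paneth markers was 6058 to 45390 cpm in GUCY2Chi cells and 6429 to 15250 cpm in GUCY2Cmed cells. Among GUCY2Chi libraries it was highest in mouse 2 and lowest in mouse 7, as was Slc2a1. The sums of 6 goblet and of 5 tuft markers were lowest in mouse 14 there. No marker of the Paneth, goblet and tuft lists passed the test. The part of these cell types in the levels of the 8 genes was not tested.

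The calls depended on the fit and on single libraries. In edgeR with the mouse as block, Slc5a1, Slc2a5, Fbp1 and G6pc were lower and none of the 8 was higher, where 4.96% of all genes tested were lower and 8.24% higher. Limma-voom with the same block called all 7 lower genes and not Slc2a1 (adjusted p = 0.0126), where 8.8% of all genes tested were lower and 11.6% higher. Limma-voom and DESeq2 without the block each called Slc5a1, Slc2a5, Khk and Fbp1 lower and Slc2a1 higher. The shares of all genes tested were 11.4% lower and 13.6% higher in limma-voom and 14.3% and 18.9% in DESeq2. Without the GUCY2Chi libraries of mice 12 and 15, a choice made after the data were seen, edgeR called all 8 genes, 7 lower and 1 higher, where 14.4% of 15160 genes tested were lower and 17.9% higher. The log2 fold changes were then -5.17 for Slc2a2, -3.82 for Pck1, -3.77 for Khk, -3.58 for G6pc, -2.86 for Slc5a1, -2.20 for Fbp1, -2.02 for Slc2a5 and 1.28 for Slc2a1. The adjusted p values of this fit lay between 4.9e-06 for Khk and 0.00402 for Slc2a1. When 1 library was left out, edgeR called none of the 8 lower without the GUCY2Chi library of mouse 2 or 14 or the GUCY2Cmed library of mouse 12 or 15. Over all genes the lower calls also fell in these fits, from 1381 to 512, 692, 744 and 532. The count for the 8 genes was 1 without the GUCY2Chi library of mouse 7 or the GUCY2Cmed library of mouse 2 or 14. Over all genes it was 584, 683 and 758 there. Without the GUCY2Chi library of mouse 15, 5 of the 8 and 1609 of all genes were lower.

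**Figure D2:**
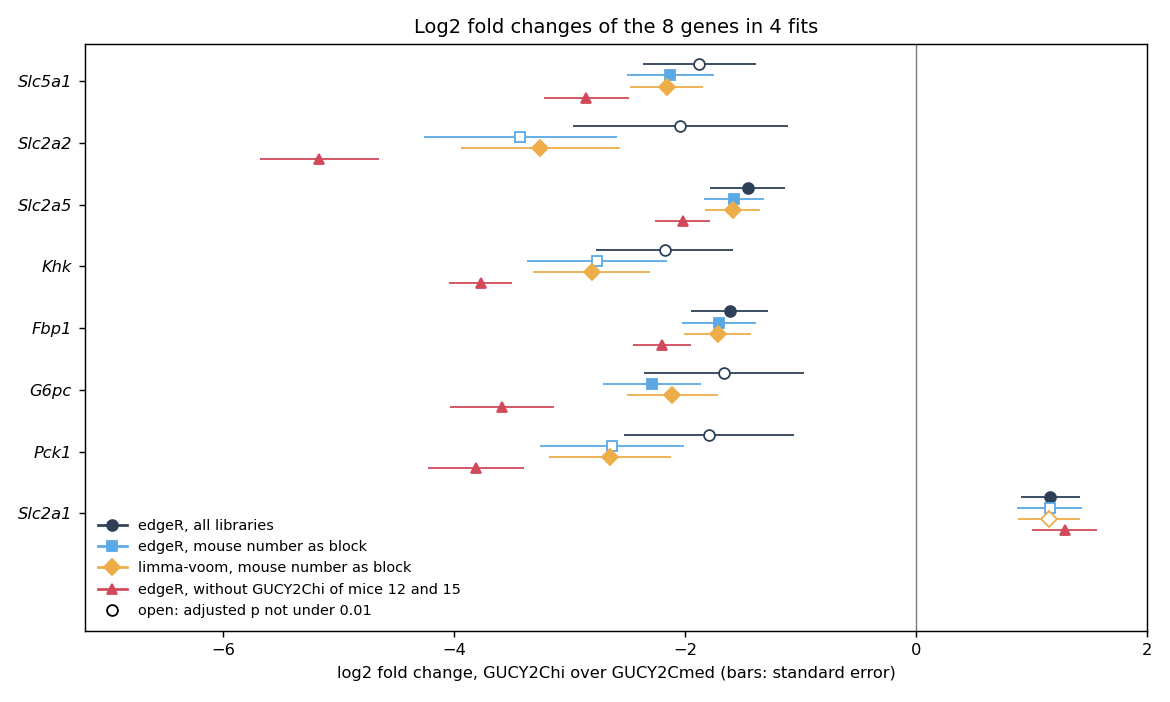
Log2 fold change (GUCY2Chi over GUCY2Cmed) of each gene with its standard error as bar, in 4 fits. Filled points have an adjusted p under 0.01; Slc2a2, Khk, G6pc and Pck1 move farthest to the left without the GUCY2Chi libraries of mice 12 and 15, whereas Slc2a1 stays between 1.15 and 1.28.

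Within each mouse, the GUCY2Chi level was set as a percentage of the GUCY2Cmed level. In mice 12 and 15, the 7 lower genes all lay near the percentage of the enterocyte markers, between 37.3% for Slc5a1 in mouse 15 and 58.5% for Slc2a5 in mouse 12. In mice 2, 7 and 14 they spread out. Slc2a2 was at 1.90% to 4.86%, close to or below the enterocyte markers, whose percentages there were 4.75% to 4.86%. Khk was at 4.57% to 10.8% and Pck1 at 5.38% to 12.2%. G6pc was at 10.5% to 12.3% and Slc5a1 at 12.8% to 18.2%. The highest percentages were those of Fbp1, 15.8% to 36.5%, and Slc2a5, 22.0% to 29.6%. Slc2a1 was at 117% to 407% in the 5 mice, lowest in mouse 15.

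**Figure D3:**
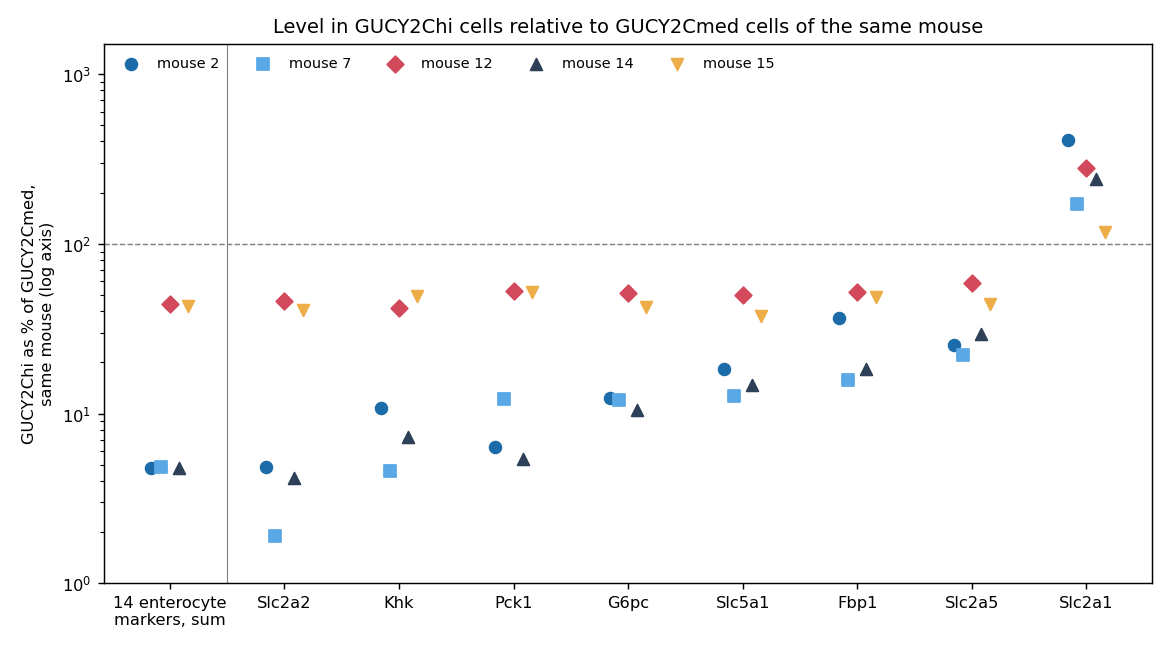
GUCY2Chi level as a percentage of the GUCY2Cmed level of the same mouse (log axis, dashed line at 100%) for the sum of 14 enterocyte markers and for each gene, 1 point per mouse. In mice 12 and 15 the 7 lower genes lie between 37.3% and 58.5%, beside the enterocyte markers, and in mice 2, 7 and 14 they range from 1.90% for Slc2a2 to 36.5% for Fbp1.

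The level of each gene was also divided by the summed enterocyte marker level of its own library, as a log2 ratio, and the groups were compared by an exact two-sided permutation test. The divisor itself fell by 3.11 on the log2 scale in GUCY2Chi cells, so that a gene at an equal level in both groups would have a ratio higher by that amount. The ratio was 1.53 higher in GUCY2Chi cells for Slc2a5 (n = 5, exact p = 0.0159) and 0.88 higher for G6pc (n = 5, exact p = 0.0238). For Slc2a1 the ratio was 4.23 higher (n = 5, exact p = 0.00794). Most of that is the lower divisor, so this test says little about Slc2a1 itself. The ratio of Fbp1 was 1.40 higher (n = 5, exact p = 0.0714) and that of Slc5a1 0.99 higher (n = 5, exact p = 0.0873), both short of 0.05. For Pck1, Khk and Slc2a2 the differences were 0.51, 0.37 and -0.23 (n = 5, exact p = 0.206, 0.214 and 0.595), smaller than the SD of the ratios of the GUCY2Chi libraries, 0.69, 0.42 and 0.75. The exact tests treat the libraries as unpaired. With libraries paired by mouse, no p below 0.0625 can be reached, and a sign-flip test gave 0.0625 for Slc2a5 and 0.125 for G6pc (exact, n = 5). In all, 16 exact tests were made on the genes, 8 of them on these ratios. Their p values are not adjusted, since the genes were not chosen independently of these data, and how far enterocytes contribute to the GUCY2Chi levels was not tested.

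Per kilobase of the gene length in the table, Slc5a1 had the highest level in GUCY2Cmed cells, 634 ± 222 cpm per kilobase (SD, n = 5). It was followed by Khk at 335 ± 60.1, Fbp1 at 224 ± 55.6, Slc2a5 at 172 ± 35.7 and Pck1 at 93.5 ± 38.4. The lowest levels per kilobase were those of Slc2a2, 38.2 ± 17.5, G6pc, 26.5 ± 12.7, and Slc2a1, 3.34 ± 0.962. In this order the ranges of neighbouring genes overlapped except between G6pc and Slc2a1, although within libraries each gene was above the next in at least 4 of 5. In GUCY2Chi cells the mean levels per kilobase were 172.5 ± 122.8 for Slc5a1 and between 62.3 and 73.9 for Khk, Fbp1 and Slc2a5. Pck1 had 27.0 ± 33.3, and Slc2a2, G6pc and Slc2a1 lay together, at 9.27 ± 11.9, 8.37 ± 8.61 and 7.47 ± 2.17. In that group the ranges of all neighbours overlapped. The deposited FPKM imply a shorter length than the table lists for 6 of the 8 genes (0.384 to 0.585 of it), and the order changed. By FPKM Slc2a5 had a higher mean than Fbp1 in both groups, and was above it in 5 of 5 GUCY2Chi and 3 of 5 GUCY2Cmed libraries. Slc5a1 kept the highest mean. It was above Khk in only 2 of 5 GUCY2Cmed libraries and above Slc2a5 in only 2 of 5 GUCY2Chi libraries. In GUCY2Chi cells the mean FPKM of Slc2a1 was above that of G6pc, 19.6 against 9.22.

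The other genes of the pathway were taken from 6 lists, whose counts stand beside 8.79% of all genes tested that were lower and 13.9% that were higher. Of 13 tested among 16 other sugar and polyol transporters, 1 was lower and 12 did not pass (median log2 fold change -0.07, beside 0.09 over all genes tested). The gene was Slc2a7, of the same family as GLUT5, with 8.87 ± 8.84 against 61.6 ± 15.8 cpm (SD, n = 5; adjusted p = 0.00614). With the mouse as block Slc2a7 did not pass (adjusted p = 0.0143) and Slc2a9, at 9.76 ± 5.34 against 27.0 ± 12.9 cpm, was the 1 lower gene (adjusted p = 0.00678). In 8 of 10 fits that left out 1 library the list held no lower gene, all but those without the GUCY2Chi library of mouse 12 or 15. A share of 1 in 13 is near the background. Slc5a4b, of the same family as SGLT1 and a close paralog of Slc5a4a with which reads may be shared, had 157.6 ± 81.6 against 400.1 ± 144.4 cpm and did not pass (adjusted p = 0.0206). Of 5 subunits of the sodium pump, which sustains the sodium gradient that SGLT1 uses, the beta subunit Atp1b3 was higher (log2 fold change 0.92, adjusted p = 0.00882) and 4 did not pass, with a list median of 0.11. Atp1b3 did not pass in edgeR with the mouse as block (adjusted p = 0.0127). In 8 of 10 fits that left out 1 library this list held no higher gene. Of the 4 disaccharidases of the brush border, which release the sugars that SGLT1 and GLUT5 take up, Mgam was lower (-2.52, adjusted p = 0.00142) and 3 did not pass (list median -2.47). Lactase, Lct, had 82.9 ± 95.9 against 475.9 ± 163.7 cpm, and sucrase-isomaltase, Sis, 693.7 ± 252.2 against 1019 ± 362.3 cpm (SD, n = 5; adjusted p = 0.0323 and 0.193).

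Of 11 other enzymes and transporters of fructolysis and gluconeogenesis, 7 were lower and 1 higher, with a median log2 fold change of -1.34. Glyctk, glycerate kinase, which acts on a product of fructose, was lower (-2.07, adjusted p = 0.00341). Tkfc, triokinase, which phosphorylates glyceraldehyde, had a log2 fold change of -2.13 and did not pass (adjusted p = 0.0442). The lower genes also included Pcx, pyruvate carboxylase (-1.54), Fbp2, the second fructose-1,6-bisphosphatase (-0.88), and Slc37a4, the glucose-6-phosphate transporter that works with G6pc (-1.22). Sord, sorbitol dehydrogenase (-1.34), Gk, glycerol kinase (-1.51), and the aldo-keto reductase Akr1b8 (-2.33) complete it. With the mouse as block in edgeR this list held 4 lower and 0 higher genes, beside 4.96% and 8.24% of all genes. Fbp2, Gk and Akr1b8 did not pass there (adjusted p = 0.0226, 0.0103 and 0.0185). In fits that left out 1 library, 2 to 7 genes of the list were lower. Pck2, the mitochondrial PEPCK, had 22.3 ± 7.48 against 11.7 ± 1.41 cpm, higher in 5 of 5 mice, and narrowly missed the threshold (adjusted p = 0.0111). G6pc2, a glucose-6-phosphatase catalytic subunit known from pancreatic islets, was the 1 higher gene (adjusted p = 0.00268). Only GUCY2Chi libraries carried G6pc2 through the filter, so its test is no independent support for a difference. With the mouse as block in edgeR G6pc2 did not pass (adjusted p = 0.0176). It had 50, 49, 8, 40 and 6 reads in the GUCY2Chi cells of mice 2, 7, 12, 14 and 15 and none in the 5 GUCY2Cmed libraries, and was at least 8.51-fold higher against a floor of 3 reads per library, which covers counting error only.

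Of 20 glycolysis genes tested among 21, 9 were lower and 2 higher, beside the shares of 8.79% and 13.9% over all genes, with a median log2 fold change of -0.90. The first step showed both directions among the hexokinases. Hk2 had 27.9, 26.8, 10.1, 43.2 and 8.38 cpm in the GUCY2Chi cells of mice 2, 7, 12, 14 and 15 and 1.59, 1.93, 1.37, 1.43 and 3.34 cpm in GUCY2Cmed cells, without overlap of the groups (log2 fold change 3.59, standard error 0.49, adjusted p = 0.000303). Hk1 was also higher, with 23.4 ± 5.77 against 8.91 ± 3.97 cpm (SD, n = 5; adjusted p = 0.00714). Hkdc1, a further hexokinase, was lower, with 38.2 ± 36.3 against 241.6 ± 52.4 cpm (SD, n = 5; adjusted p = 0.0073), and was again highest in mice 12 and 15 among GUCY2Chi libraries. The other lower genes were Gpi1, Pfkp, Tpi1, Pgk1, Pgam1, Eno1, Eno3 and Pklr, which serve later steps, with log2 fold changes from -2.03 for Eno3 to -0.72 for Pklr. Several of them have processed pseudogenes with which reads may be shared, so their counts are less certain. With the mouse as block in edgeR the list held 7 lower genes and 1 higher, Hk2, beside 4.96% and 8.24% of all genes. Hk1, Hkdc1, Tpi1 and Pklr did not pass there (adjusted p = 0.0277, 0.012, 0.0104 and 0.0178), and Gapdh did (0.00956). In fits that left out 1 library, 3 to 10 genes of the list were lower.

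Of 13 regulators of sugar metabolism, 4 were lower and 2 higher, and the list median of 0.10 was close to that of all genes tested. Mlx, the partner of the carbohydrate response factor ChREBP, was lower (log2 fold change -0.98, adjusted p = 0.0015), whereas the gene of that factor, Mlxipl, had 58.0 ± 25.1 against 52.1 ± 7.38 cpm and did not pass (adjusted p = 0.743). Ppargc1a and Klf15, known as activators of gluconeogenic genes, were lower (-1.80 and -1.16, adjusted p = 0.00635 and 0.00546). The bifunctional enzymes that set fructose-2,6-bisphosphate differed in direction, with Pfkfb4 lower (-1.83, adjusted p = 0.00164) and Pfkfb3 higher (12.9 ± 4.93 against 4.58 ± 1.88 cpm, adjusted p = 0.0077). Arrdc4, an arrestin that limits glucose uptake, was higher (0.91, adjusted p = 0.00991). Neither Pfkfb3 nor Arrdc4 passed in edgeR with the mouse as block (adjusted p = 0.0251 and 0.0202) or in limma-voom (0.0104 and 0.0116). With that block in edgeR the list held 0 higher and 2 lower genes. In 8 of 10 fits that left out 1 library it held no higher gene. Over the 6 lists, 22 of 66 genes tested were lower, where 8.79% of all genes were, and 6 higher, where 13.9% were. These 6 include G6pc2, which only GUCY2Chi libraries carried through the filter. With the mouse as block 15 were lower and 1, Hk2, higher, beside 4.96% and 8.24% of all genes. Without the GUCY2Chi libraries of mice 12 and 15 the counts were 29 and 8, beside 14.4% and 17.9% of all genes, a choice made after the data were seen. The count of lower genes was 8, 8 and 10 without the GUCY2Chi library of mouse 2, 7 or 14, and 10, 13, 10, 11 and 9 without the GUCY2Cmed library of mouse 2, 7, 12, 14 or 15. Over all genes the lower calls also fell from 1381, to 512, 584 and 692 without those GUCY2Chi libraries. They fell to 683, 965, 744, 758 and 532 without those GUCY2Cmed libraries. The count of higher genes was 2 or 3 without any 1 of the GUCY2Chi libraries of mice 2, 7, 12 and 14 or the GUCY2Cmed libraries of mice 2, 12, 14 and 15. Over all genes the higher calls in these fits were between 1636 and 2071, from 2186 with all libraries.

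**Figure D4:**
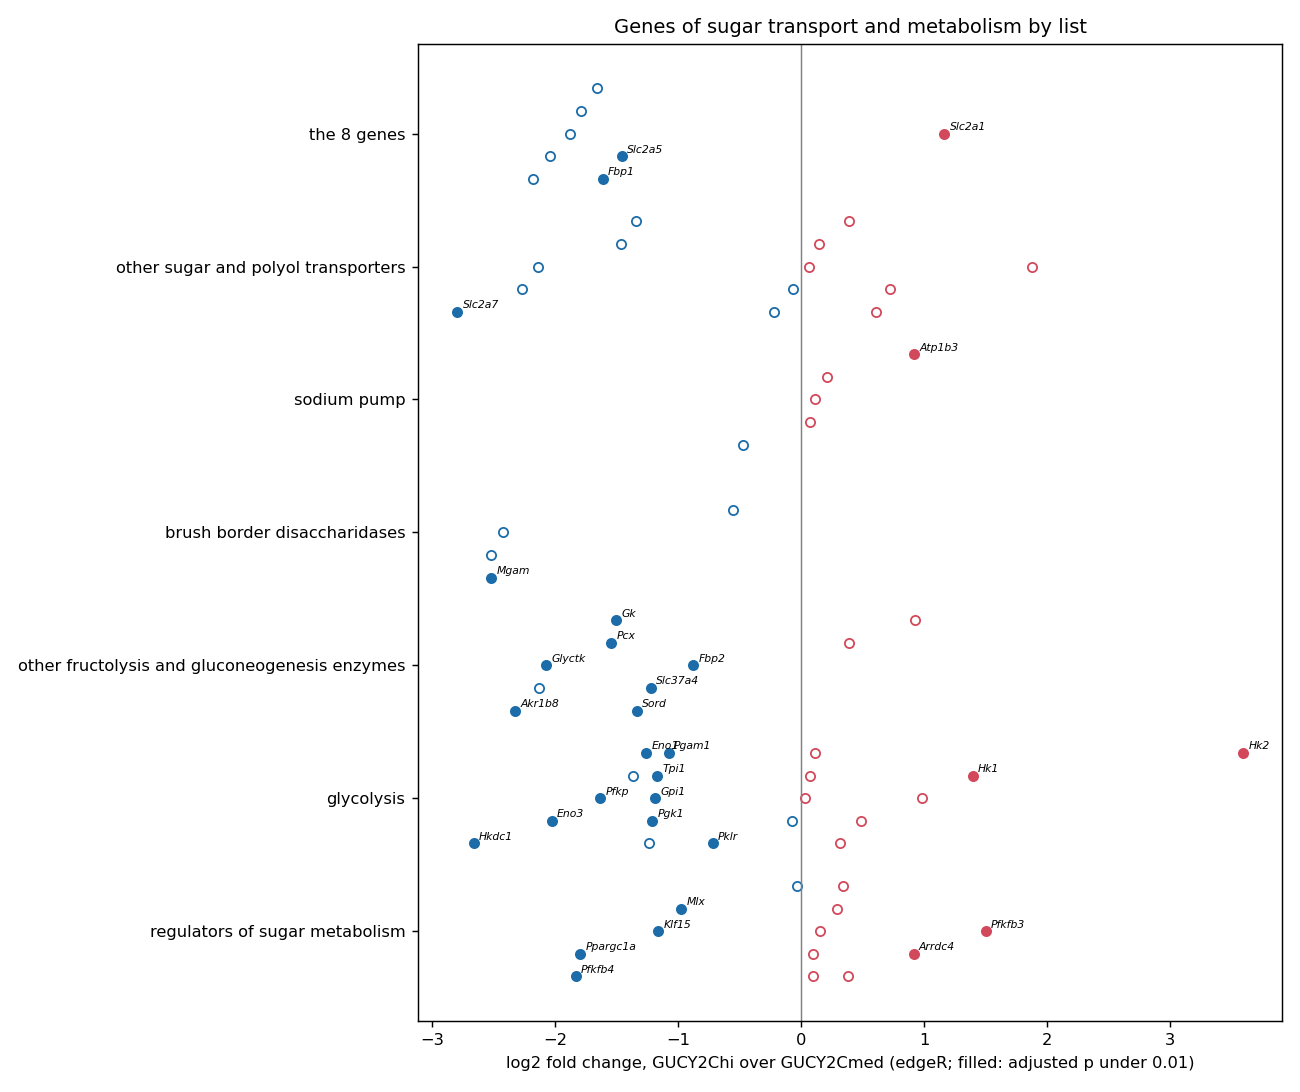
Log2 fold change (GUCY2Chi over GUCY2Cmed, edgeR) of the 8 genes and of each tested gene of 6 lists, 1 point per gene, filled and named where the adjusted p was under 0.01. G6pc2, with no read in GUCY2Cmed cells, is not drawn, and Hk2, at 3.59, lies farthest to the right of the genes drawn.

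The genes whose levels ran most like each of the 8 over the 10 libraries were found by the root mean square difference of centred log2 levels among 9977 genes with at least 5 cpm on average. For Slc2a2 the nearest were Slc5a11, a sodium-coupled inositol and sugar transporter of the lists above (0.42), and Lct (0.44). For Fbp1 they were Uqcrc1 and Sdhd, subunits of the respiratory chain (0.16 each), and for Slc2a5 the mitochondrial phosphate carrier Slc25a3 (0.14). Khk ran closest to Cd302 (0.16), Slc5a1 to Adtrp (0.24), G6pc to the aspartate-glutamate carrier Slc25a13 (0.29) and Pck1 to Kalrn (0.32). Slc2a1 ran closest to Adgre5, an adhesion receptor (0.16). All these genes were compared over the same 10 libraries, and the distances are a description.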

How the data were processed

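GUCY2Chi and GUCY2Cmed cells were compared in 10 libraries, grouped by the sample labels. The counts were deposited by the authors as raw whole numbers, from paired reads aligned with STAR. The FPKM, as deposited by the authors, are counts divided by gene length and by counted reads, and were used for levels only. The labels name mm9, limma 3.40.6 and edgeR 3.26.8, but 99.9% of 37624 gene symbols in the table overlap their place on GRCm38 and 9.66% of 28329 on NCBIM37, so positions are on GRCm38. The authors' normalized values (10 columns), fold changes and p-values, also in 2 further files, were not used.

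Counts were tested in R 4.3.3 with edgeR 4.0.16 (quasi-likelihood, TMM, genes over 0.5 cpm in at least 3 libraries, Benjamini-Hochberg adjusted p under 0.01), with limma 3.58.1 (voom) and DESeq2 1.42.0 as alternatives and Python 3.11.15 for exact tests and figures. The standard error is the log2 fold change divided by the root of the F statistic. Exact permutation tests were two-sided on log2(cpm + 0.5), with 252 splits and a threshold of 0.05, and treat the libraries as unpaired. A sign-flip test over 5 mice allows no p below 0.0625, so no exact result could pass under pairing. The tests were checked on simulated data. Promoter sequences are from RefSeq (GRCm38.p6). Aldoa, on 2 rows of the table, was taken from the row with more counts.

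The genes and lists were chosen with earlier results of these data known. The pathway genes named are those past the threshold and those in the same step as a member, and a few pathway genes are left unreported. The numbers in the labels, which do not name them as mice, were taken to pair the libraries, since both groups were sorted from the same 5 mice. The correlations of same-numbered deviations were -0.0744, -0.173, 0.27, -0.101 and 0.0505 for mice 2, 7, 12, 14 and 15. The alternatives were the replicate block, a minimum of 10 counts in every library or no filter, library size only, RLE factors, library sizes without the top 50 genes, a pseudocount of 0.1, a threshold of 0.05, each library left out, and both GUCY2Chi libraries of mice 12 and 15 left out, the last chosen after seeing the data.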

Additional observations from a re-analysis of the deposited data

How the results depend on the processing

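No alternative that was run turned the direction of a log2 fold change of the 8 genes. Limma-voom also called Slc5a1 (-2.12) and Khk (-2.74), as did DESeq2 (-1.85 and -2.15), which gives 4 lower genes in each. With the replicate block in edgeR, Slc5a1 (-2.13) and G6pc (-2.29) were called as well, 4 lower genes, and Slc2a1 (1.16) was not, so 0 higher. With the replicate block in limma-voom, Slc5a1 (-2.16), Slc2a2 (-3.26), Khk (-2.81), G6pc (-2.11) and Pck1 (-2.65) passed, 7 lower, and Slc2a1 (1.15) did not, 0 higher. The block changed no other call of the 8 genes. With library size only, Slc2a5 was lost (-1.17), leaving 1 lower, and the median of all genes moved by 0.294. A threshold of 0.05 gave 4 lower. Without the GUCY2Chi libraries of mice 12 and 15, 7 were lower: Slc5a1 (-2.86), Slc2a2 (-5.17), Khk (-3.77), G6pc (-3.58) and Pck1 (-3.82) were added. With 1 library left out at a time, the log2 fold changes ranged from -2.25 to -1.61 for Slc5a1, -2.96 to -1.66 for Slc2a2, -1.68 to -1.25 for Slc2a5, -2.63 to -1.87 for Khk, -1.82 to -1.41 for Fbp1, -2.23 to -1.31 for G6pc, -2.80 to -1.42 for Pck1 and 1.07 to 1.35 for Slc2a1, with 0 to 5 lower and 0 to 1 higher genes called.

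Over the 6 pathway lists, 22 lower and 6 higher genes became 10 lower with library size only, 14 lower with at least 10 counts in every library, 1 higher with the replicate block in edgeR and 3 higher with it in limma-voom, and 8 to 22 lower and 2 to 6 higher with 1 library left out. Among all genes, 2186 higher and 1381 lower became 1294 and 779 with the block in edgeR, 2960 and 2235 with DESeq2, 3367 and 2767 at a threshold of 0.05, 2910 and 557 with library size only (83.9% higher, against 61.3%), 2711 and 2186 without the GUCY2Chi libraries of mice 12 and 15, and 1636 to 2534 and 512 to 1609 with 1 library left out; leaving out the GUCY2Chi library of mouse 2, 7 or 14 raised the share of higher calls to 77.4%, 74.2% and 70.3%, and the GUCY2Cmed library of mouse 2, 12 or 15 to 72.9%, 72.1% and 76.0%. In the exact tests, the difference of G6pc was -1.96 with library size only (exact p = 0.0556) and -2.71 to -1.84 with 1 library left out, that of Pck1 -3.22 to -2.17. Beside the enterocyte markers, Slc5a1 ranged from 0.70 to 1.24 and Fbp1 from 1.15 to 1.72, and without the GUCY2Chi libraries of mice 12 and 15, chosen after seeing the data by the enterocyte level that is the divisor, they were at 1.57 and 2.23. In the sign-flip test with the replicate block, which allows no p under 0.0625, Slc2a5 (1.53), G6pc (0.88) and Slc2a1 (4.23) did not pass. As deposited FPKM, the GUCY2Chi levels were 178.2 for Slc2a5, 146.6 for Fbp1 and 19.6 for Slc2a1, and the GUCY2Cmed levels 67.5 for Slc2a2, 402.3 for Slc2a5, 518.9 for Khk, 368.8 for Fbp1, 156.5 for Pck1 and 7.21 for Slc2a1. These rest on shorter gene lengths; the cause of the other differences was not tested.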

Other observations

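The balance between the transporters differed between libraries, as ratios of cpm per kilobase. In GUCY2Cmed cells Slc2a2 (GLUT2) was 7.58 to 13.6 times Slc2a1 (GLUT1). In GUCY2Chi cells it was 0.0906, 0.117 and 0.188 times Slc2a1 in mice 2, 7 and 14, so that GLUT1 RNA was the more abundant there, and 2.12 and 4.75 times in mice 12 and 15. By deposited FPKM, which rest on shorter lengths for Slc2a1 and Slc2a2, these values were 6.26 to 11.2, then 0.0748, 0.0965 and 0.155, and 1.75 and 3.93. Slc5a1 (SGLT1) stayed above Slc2a1 in all 10 libraries, 154 to 227 times in GUCY2Cmed cells and 6.89 to 59.4 times in GUCY2Chi cells. By FPKM it was 63.9 to 94.1 and 2.86 to 24.6 times. Slc5a1 was 76.1, 112 and 74.2 times Slc2a2 in the GUCY2Chi cells of mice 2, 7 and 14 and 16.5 and 12.5 times in those of mice 12 and 15, where GUCY2Cmed cells of the 5 mice had 13.7 to 21.0. By FPKM it was 38.2, 56.4 and 37.2 times, 8.26 and 6.27 times, and 6.87 to 10.5 times in GUCY2Cmed cells. The ratios between genes thus depend on the gene lengths used, and the order of the libraries within a ratio does not. These ratios were not tested between the groups.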
